A study of Triticum aestivum and Triticum urartu with 56 samples.

Results

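Transcription start sites of immature embryos of common wheat, cultivar Chinese Spring, were compared with those of seedling, spike and root. Start sites came from CAGE (cap analysis of gene expression), which sequences the 5′ ends of capped transcripts and gives each as a tag at 1 position of 1 strand. Within a tissue, tag positions at most 20 bp apart on the same strand were joined, and a CAGE-tag cluster was kept where at least 2 libraries held at least 2 tags each and the mean was at least 0.1 RPM (tags per 1000000 tags of the library). This gave 34573 clusters in embryo, against 65403 in seedling, 44711 in spike and 65713 in root, and 19819 and 19463 in embryo without embryo replicates 1 and 3. Among groups with 2 tags in at least 2 embryo libraries, the lowest mean kept was 0.111 RPM and the highest left out 0.0995 RPM. Merging clusters of the 4 tissues that overlapped gave 134180 clusters, of which 33414 overlapped an embryo cluster and 92706 had enough tags to be tested. An embryo-high cluster was called where embryo exceeded the mean of the other 3 tissues by a log2 fold change of at least 1 at an adjusted p under 0.05, and an embryo-low cluster by the same rule in the other direction. There were 9179 embryo-high and 2032 embryo-low clusters, and every tested cluster was considered, whatever its annotation.

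The embryo group held 3 libraries of fresh immature embryos collected 14 days post anthesis. The seedling group held 4 libraries of above-ground parts after 9 days of growth in soil, the root group 2 libraries after 9 days in Hoagland solution, and the spike group 2 libraries of spikelets at booting, Feekes stage 10. All plants were untreated Chinese Spring, and no genotype or agent differed between the groups. The source and tissue labels of these CAGE libraries name seedlings throughout, also for embryo, spike and root, so the groups rest on the titles and on a separate label that gives age and organ. The other data used were 1 RNA-seq library each of Chinese Spring embryo and root, and 1 peak list each for the histone marks H3K4me3 and H3K9ac from booting spikelets of the wheat cultivar JW1. The labels do not say whether libraries of a tissue came from separate plants, so the p-values measure only the spread between these libraries. Whole organs were sampled, so a lower level can mean fewer cells of a type or less RNA per cell, and these cannot be told apart.

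Common wheat is a hexaploid whose subgenomes A, B and D come from related grasses, so most of its genes exist as homoeologous copies on matching chromosomes. A core promoter can direct initiation to a single base, which gives a sharp cluster, or to many bases over a wider stretch, which gives a broad one, and plant genes often have several such starts. At the stage sampled, the embryo passes from forming its organs to laying down storage protein, oil and the proteins that allow it to survive drying. H3K4me3 and H3K9ac mark nucleosomes near the starts of active transcription units.

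The libraries held between 2970800 and 24399682 tags, and embryo replicate 2 was the shallowest. A count of 0, with an upper limit of 3 tags, allowed a level of up to 0.198, 1.01 and 0.150 RPM in embryo replicates 1 to 3 and of 0.123 to 0.539 RPM in the other 8 libraries, for counting error only. The 10 clusters with the most tags took 20.2%, 17.4% and 23.7% of the tags of the embryo libraries and 8.62% to 14.3% in the others. Log levels of tested clusters correlated between embryo libraries at Pearson's r of 0.620 to 0.625, between embryo and spike at 0.298 to 0.324, between embryo and root at 0.222 to 0.235 and between embryo and seedling at 0.0872 to 0.172, across clusters that are not independent of each other. Seedling replicate 1 stood apart from the other seedling libraries, with r of 0.280 to 0.304 with the spike libraries against 0.179 to 0.210 for seedling replicates 2 to 4, so results that rest on it are given without it too. Defining marker genes of embryo, endosperm, leaf, root and flower were not checked here, since the positions carry no gene names.

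Embryo-high clusters were 9.9% of the 92706 clusters tested and embryo-low clusters 2.19% (edgeR quasi-likelihood test, Benjamini-Hochberg adjustment over all tested clusters). All 3 embryo libraries lay above all 8 others in 3013 tested clusters (3.25%) and below them in 1926 (2.08%). Among the called clusters, this separation held for 2835 embryo-high and 1162 embryo-low clusters, which are called separated clusters from here on. Without seedling replicate 1 there were 9733 embryo-high and 2232 embryo-low clusters, of which 2883 and 1269 were separated from the 7 remaining libraries. The count of embryo-high clusters fell most when 1 of the 2 spike libraries was left out, to 2129 without spike replicate 1 and 1627 without spike replicate 2. It was 4622, 5093 and 4171 without embryo replicates 1, 2 and 3, 5547 without root replicate 1 and 2868 without root replicate 2. The count of embryo-low clusters was 845, 1107 and 793 without embryo replicates 1, 2 and 3, 1033 and 802 without spike replicates 1 and 2, and 1131 without root replicate 2. Leaving out a spike or root library left 1 library in that tissue, and the filter then kept more clusters for the test than the 92706. There were 115670 and 114320 without spike replicates 1 and 2, and 113344 and 111850 without root replicates 1 and 2. How far this larger set lowered the counts was not tested. DESeq2 in place of edgeR gave 5092 embryo-high and 5521 embryo-low clusters, so 48.0% of its calls were higher in embryo, against 81.9%.

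**Figure D1:**
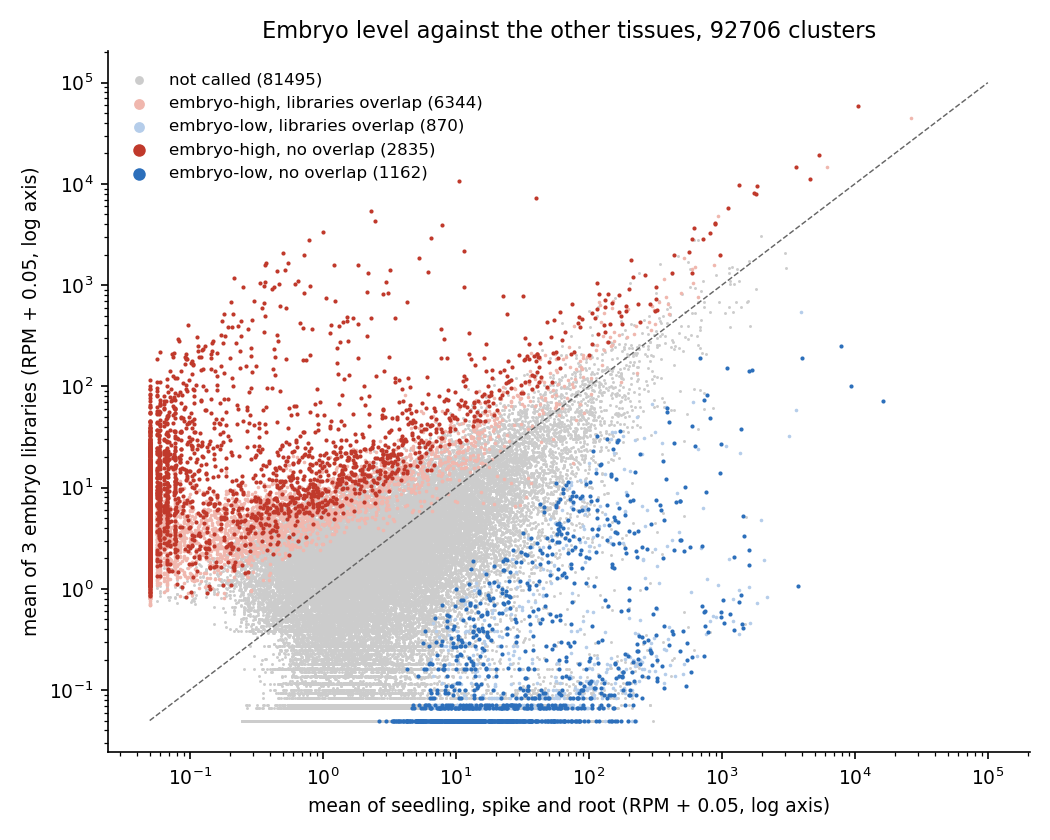
Mean level of 92706 tested clusters in the 3 embryo libraries (vertical axis, RPM plus 0.05, log scale) against the mean of the seedling, spike and root means (horizontal axis, same scale). Each point is a cluster, dark points are called clusters whose embryo libraries did not overlap the 8 others (2835 embryo-high in red, 1162 embryo-low in blue), and the dashed line marks equal levels; many embryo-high clusters sit at the left edge, with no tag in the other tissues.

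Embryo-high clusters had low levels in embryo and few or no tags elsewhere, the second of which the call itself favours. Their mean embryo level had a median of 4.52 RPM (quartiles 2.75 and 8.81), and 4655 of them (50.7%) had no tag in any of the 8 other libraries. In 7108 (77.4%) only embryo met the rule for a cluster, and 8933 (97.3%) were highest in embryo, while 159 were highest in spike, 77 in root and 10 in seedling. Tags were present in all 3 embryo libraries for 4005 (43.6%), so the others rested on 2 embryo libraries or fewer. Separated embryo-high clusters had a median of 9.89 RPM in embryo (quartiles 4.98 and 26.5), and 1081 of the 2835 had no tag in the other libraries. Because 8001 embryo-high clusters lacked tags in at least 1 whole tissue, their fitted fold changes depend on the model's prior count and are not summarised.

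A small part of the embryo-high clusters reached high levels. Of the 9179, 2068 reached 10 RPM in embryo, 380 reached 100 RPM and 63 reached 1000 RPM. Embryo-high clusters held 50.6%, 48.5% and 50.9% of the tags of embryo replicates 1 to 3, against 17.9% and 18.1% in spike, 7.95% and 7.99% in root, and 11.6%, 4.83%, 3.40% and 3.33% in seedling replicates 1 to 4. The call itself favours a larger share in embryo. Spike held the larger share among the other tissues, and seedling replicate 1 held more than the other seedling libraries. The spike share rests in part on single strong clusters, since chr5A:533278272-533278530 alone held 48087 and 47954 RPM in spike replicates 1 and 2. Embryo libraries agreed better on the strong clusters: between the highest and the lowest embryo library the median ratio was 1.57 for embryo-high clusters of at least 100 RPM, against 1.59 over all 687 tested clusters of that level, and 2.17 for embryo-high clusters of at least 10 RPM.

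The 12 separated embryo-high clusters with the smallest p were near silent outside embryo. The cluster at chr5D:493451374-493451726 (plus strand, 353 bp) held 1932, 2071 and 2171 RPM in embryo replicates 1 to 3. Its level was 0 in seedling replicates 1 and 2, 0.655 and 0.884 RPM in seedling replicates 3 and 4, 0.657 and 0.615 RPM in spike, and 0.418 and 0.239 RPM in root. The embryo libraries lay close together and far above every other library, at a log2 fold change of 12.50 ± 0.71 (SE, adjusted p = 4.81e-10).

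The cluster at chr5B:513325496-513325537 (plus strand, 42 bp) held 1173, 1866 and 1135 RPM in embryo and between 0 and 0.986 RPM elsewhere, the highest of these in spike replicate 1, a log2 fold change of 12.20 ± 0.61 (SE, adjusted p = 4.81e-10). At chr5B:609194547-609194824 (plus strand, 278 bp), embryo held 1518, 1271 and 1467 RPM and the other libraries 0 to 0.732 RPM, with root at 0.732 and 0.657 RPM. The first of these clusters was compact, with 68.8% of its tags at its dominant position, and the other was broad, with 16.7%. The highest embryo level among the 12 was at chr7B:103739026-103739224 (minus strand, 199 bp), at 2592, 3464 and 2375 RPM against at most 1.47 RPM in the other libraries, in seedling replicate 3.

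Embryo replicates disagreed most at chr3D:377188511-377188526 (minus strand, 16 bp), where they held 1966, 2319 and 732 RPM, against at most 0.697 RPM in spike replicate 2 and 0 in seedling replicates 1 and 2. They agreed at chr5D:290674378-290674387 (plus strand, 10 bp), with 2144, 1998 and 1857 RPM against 0 to 0.995 RPM. At chr1B:5687707-5687745 (minus strand) embryo held 1709, 1986 and 1243 RPM, and root replicate 1 held the most of the others, 1.15 RPM. In these 3 clusters, as in the 4 above, the lowest embryo library exceeded the highest other library by a wide margin.

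The remaining 5 of the 12 lay at chr1D:291807303-291807378 (minus strand; embryo 1238, 1161 and 773 RPM), chr5B:331279615-331279632 (plus; 1141, 1140 and 773 RPM), chr4D:7184460-7184921 (minus; 1113, 687 and 1077 RPM), chr1D:448424058-448424146 (plus; 517, 435 and 415 RPM) and chr1D:392133345-392133467 (minus; 962, 1265 and 744 RPM). No other library reached 1 RPM in any of the 5. All 12 exceeded seedling, spike and root separately in the same fit, with log2 fold changes against the mean of the 3 tissues between 11.21 and 12.55. The exact two-sided permutation test of 3 embryo against 8 other libraries gave p = 0.0121 for each, the smallest that this design allows, which the choice of separated clusters fixes in advance. They lay on 7 chromosomes, and 3 each lay on 1D and 5B.

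**Figure D2:**
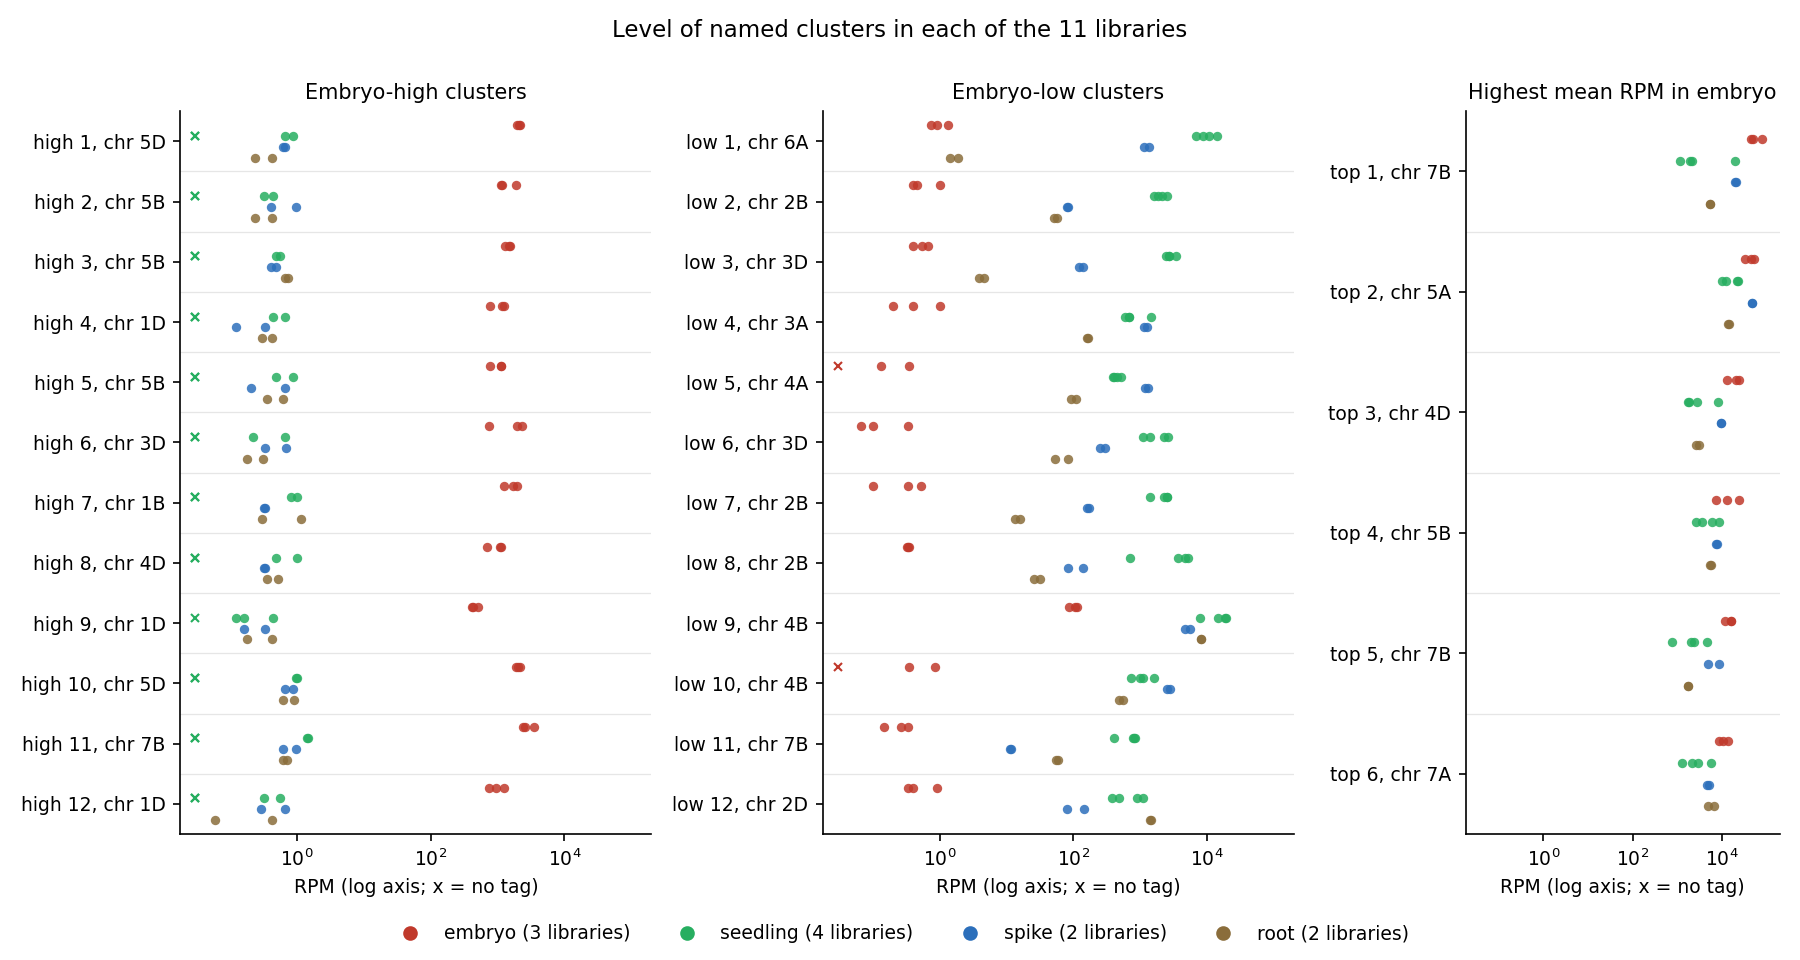
Level of 30 named clusters in each of the 11 CAGE libraries (horizontal axis, RPM on a log scale; a cross at the left edge marks no tag), for the 12 embryo-high and 12 embryo-low separated clusters with the smallest p and the 6 clusters with the highest mean in embryo. Each point is a library coloured by tissue, and rows follow the order of p or of level. Embryo levels do not overlap the others in the first 2 panels, though root lies close to embryo at the first embryo-low cluster. In the third panel the spike points come close to the embryo points.

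A group of 160 clusters combined at least 100 RPM in embryo with a mean in the other tissues under 1% of that. All 160 were separated embryo-high clusters, which this choice largely fixes in advance. They held 11.5%, 12.6% and 9.62% of all tags of embryo replicates 1 to 3, and 29 of them reached 1000 RPM. The strongest, chosen after the values were seen, lay at chr2D:568090856-568090950 (plus strand, 95 bp), with 9912, 11363 and 10969 RPM in embryo, 19.9 and 30.4 RPM in spike, 4.60 and 2.99 RPM in root, and 0, 0, 5.57 and 5.08 RPM in seedling replicates 1 to 4. Clusters on the 2 matching chromosomes were also among the 6 strongest. At chr2B:680597363-680597507 (plus strand), embryo held 7314, 8189 and 6346 RPM, spike 137 and 84.6 RPM, and no other library over 8.36 RPM. At chr2A:673370173-673370189 (plus strand), embryo held 4779, 4771 and 2150 RPM, spike 21.7 and 13.4 RPM, and no other library over 5.97 RPM. In all 3 clusters spike came second after embryo, and whether they are homoeologous copies was not checked here.

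The few tags of these 160 clusters outside embryo differed most between seedling libraries. Tags were found at 13 of the 160 (8.12%) in seedling replicate 1 and at 2 (1.25%) in seedling replicate 2, but at 95 (59.4%) and 127 (79.4%) in seedling replicates 3 and 4. They were found at 89 and 130 in spike and at 137 and 128 in root. Summed over the 160, these libraries held between 0.351 and 26.4 RPM for every 10000 RPM of the embryo mean. The range within seedling was thus wider than that within spike or root, and where such tags come from was not tested.

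The clusters with the highest levels in embryo were not specific to it. The highest, at chr7B:689184759-689184828 (plus strand, 70 bp), held 50785, 45460 and 81022 RPM in embryo, 20820 and 19393 RPM in spike and 5405 and 5378 RPM in root. Its seedling replicates 1 to 4 held 20309, 1900, 1150 and 2212 RPM. Embryo did not overlap the other tissues, while seedling replicate 1 lay with spike, far above the other seedling libraries. The log2 fold change was 3.07 ± 0.67 (SE, adjusted p = 0.0155), and the call was lost without embryo replicate 3 (adjusted p = 0.0825), without root replicate 1 (0.174) and without root replicate 2 (0.177). Without seedling replicate 1 the log2 fold change was 3.78 (adjusted p = 1.03e-06).

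At chr5A:533278272-533278530 (plus strand, 259 bp), embryo held 53160, 33766 and 46154 RPM and overlapped spike, at 48087 and 47954 RPM. Root held 14493 and 13878 RPM, and seedling replicates 1 to 4 held 22889, 21689, 12315 and 10105 RPM. It was called against the mean of the others at a log2 fold change of 1.34 ± 0.34 (SE, adjusted p = 0.0281), but the exact two-sided permutation p was 0.0848, and the call was lost under DESeq2 (adjusted p = 0.146), without embryo replicate 1 (0.160), without embryo replicate 3 (0.142), without spike replicate 1 (0.0581) and with the 8 other libraries as 1 group (0.101). The next, at chr4D:472346400-472346669 (plus strand), held 20838, 24239 and 13153 RPM in embryo, 9452 and 9489 RPM in spike, 3116 and 2619 RPM in root and 8364, 1713, 2845 and 1816 RPM in seedling (log2 fold change 2.28 ± 0.44, SE, adjusted p = 0.00751). Here too embryo was separated from the other libraries, and spike and seedling replicate 1 came next. Without seedling replicate 1, the log2 fold change was 1.44 (adjusted p = 0.00591) at the cluster on 5A and 2.62 (adjusted p = 1.28e-06) at that on 4D.

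Of the other 3 clusters in this group, chr7B:683562631-683562894 (minus strand) held 16078, 16221 and 11806 RPM in embryo and 4942 and 8504 RPM in spike, and kept its call in all alternatives run. The calls of chr5B:505768454-505768630 (plus strand; embryo 12990, 7438 and 23898 RPM, spike 7625 and 7704 RPM) and chr7A:694552565-694552838 (minus strand; embryo 10588, 8825 and 14160 RPM, spike 4697 and 5153 RPM) were lost, among other alternatives, under DESeq2 (adjusted p = 0.0939 and 0.0733), without embryo replicate 1 (0.0763 and 0.0945), without embryo replicate 3 (0.355 and 0.213) and without either spike library (0.0577 to 0.0581 and 0.0547 to 0.0581). None of the 6 clusters was called against spike alone, where adjusted p was 0.156 or higher. Seedling replicate 1 was the highest seedling library at all 6.

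Embryo-low clusters had high levels in the other tissues and were often shared by them, both of which the call itself favours. Their mean over the other 3 tissues had a median of 21.4 RPM (quartiles 10.9 and 69.1), against 1.55 RPM over all tested clusters. Their median in embryo was 0.0167 RPM, the same as over all tested clusters. No embryo tag was found at 854 (42.0%), against 49.8% of all tested clusters. In 1194 of the 2032 the other 3 tissues each met the cluster rule and embryo did not, against 5071 of all 92706 tested clusters. An embryo cluster overlapped 409 of the 2032 (20.1%), against 31.1% of all tested clusters. Seedling held the highest mean in 819, root in 798 and spike in 415. These clusters took 34.5% to 38.3% of the tags of the seedling libraries, 21.6% and 21.9% in root, and 11.1% in each spike library, against 0.428%, 0.523% and 0.423% in embryo replicates 1 to 3. The 1162 separated clusters had medians of 22.7 RPM in the others and 0.0220 RPM in embryo, and 468 had no embryo tag.

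The 12 separated embryo-low clusters with the smallest p were led by seedling in 8 cases. The cluster at chr6A:588230306-588230432 (plus strand, 127 bp) held 0.926, 1.35 and 0.751 RPM in embryo. It held 10627, 14179, 8553 and 6845 RPM in seedling replicates 1 to 4, 1350 and 1148 RPM in spike, and 1.88 and 1.43 RPM in root. Embryo and root were thus both near silent, and the call against the mean (log2 fold change -7.83 ± 0.49, SE, adjusted p = 1.77e-08) rested on seedling and spike, with an adjusted p of 0.972 against root alone.

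At chr2B:84976506-84976540 (plus strand), embryo held 0.463, 1.01 and 0.40 RPM, seedling 1816, 2136, 2481 and 1595 RPM, spike 83.0 and 81.4 RPM and root 51.1 and 56.0 RPM. At chr3D:313285896-313285964 (plus strand), embryo held 0.397, 0.673 and 0.551 RPM, seedling 3394, 2697, 2693 and 2446 RPM, spike 141 and 123 RPM and root 4.60 and 3.94 RPM. In both, seedling stood far above spike, and root was the nearest to embryo. A like order was seen at chr2B:373747651-373747702 (minus strand; embryo 0.529, 0.337 and 0.10 RPM, seedling 1385 to 2532 RPM, root 15.8 and 13.4 RPM) and at chr2B:368615783-368615968 (minus strand; embryo 0.331, 0.337 and 0.350 RPM, seedling 697 to 5215 RPM, root 26.1 and 31.2 RPM). The last of these was split with a joining distance of 10 bp and was then not called (log2 fold change -3.53, adjusted p = 1.00).

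The strongest of the 12 outside embryo lay at chr4B:10436594-10437087 (plus strand, 494 bp). It held 84.9, 107 and 112 RPM in embryo, 7694, 19243, 14738 and 18486 RPM in seedling, 4681 and 5561 RPM in spike and 8152 and 7984 RPM in root. It was low but clearly present in embryo, 92.8 times below the mean of the others (log2 fold change -6.07 ± 0.45, SE, adjusted p = 8.48e-07). Spike led at chr4A:501468465-501468549 (plus strand), with 1301 and 1166 RPM against 0.132, 0 and 0.350 RPM in embryo, and at chr4B:125481387-125481619 (plus strand), with 2528 and 2797 RPM against 0.859, 0 and 0.350 RPM. Root led only at chr2D:54067259-54067292 (minus strand), with 1433 and 1376 RPM against 0.926, 0.337 and 0.40 RPM in embryo.

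The remaining 3 were at chr3A:744266462-744266515 (plus strand; embryo 0.397, 1.01 and 0.200 RPM, spike 1129 and 1251 RPM, seedling 582 to 1472 RPM), chr3D:600563286-600563317 (plus strand; embryo 0.0661, 0.337 and 0.10 RPM, seedling 1105 to 2628 RPM) and chr7B:106339617-106339626 (plus strand; embryo 0.264, 0.337 and 0.150 RPM, seedling 411 to 830 RPM). Seedling replicate 1 was the highest seedling library at the first and the lowest at the last, and without it their log2 fold changes were -9.95 and -8.04 (adjusted p = 3.15e-09 and 9.21e-08). Spike thus had the highest mean at 3 of the 12, seedling at 8 and root at 1. The exact permutation p was 0.0121 for each of the 12, fixed by their choice as above.

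Against single tissues, embryo differed from seedling at the most clusters. It was higher than seedling at 3194 (3.45%) and lower at 4896 (5.28%), higher than root at 623 (0.672%) and lower at 1555 (1.68%), and higher than spike at 482 (0.52%) and lower at 1283 (1.38%). Seedling had 4 libraries and spike and root 2 each, so these counts do not rank the tissues by likeness. With another scaling (DESeq2 size factors in edgeR) the counts against spike were 553 higher and 882 lower, and DESeq2 put 41.8%, 41.3% and 29.1% of its calls higher in embryo against spike, root and seedling, in place of 27.3%, 28.6% and 39.5%. The total for embryo against spike, 1765, was 3068 without seedling replicate 1, 695, 950 and 716 without embryo replicates 1 to 3, and 963 and 622 without spike replicates 1 and 2. The total for embryo against root, 2178, was 3579 without seedling replicate 1, 737, 1078 and 764 without embryo replicates 1 to 3, and 1161 and 1051 without root replicates 1 and 2. The total for embryo against seedling, 8090, was 8468 without seedling replicate 1, 3928 and 3910 without embryo replicates 1 and 3, and 4850 without seedling replicate 4. Of all 9179 embryo-high clusters, 2498 (27.2%) were also called higher than seedling alone, 607 (6.61%) than root alone and 474 (5.16%) than spike alone, so most calls against the mean of the others were not made against any of these tissues by itself. Of the 2835 separated embryo-high clusters, 1753 (61.8%), 548 (19.3%) and 451 (15.9%) were called in that order. Of all 2032 embryo-low clusters, 1466 (72.1%) were called lower than seedling alone, 816 (40.2%) than root alone and 686 (33.8%) than spike alone. Of the 1162 separated embryo-low clusters, 1010, 543 and 459 were called lower than seedling, root and spike alone.

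Embryo-high clusters were narrower and sharper than embryo-low clusters. Their median width was 10 bp, against 39 bp for embryo-low clusters and 13 bp over all tested clusters, and separated clusters had medians of 17 and 41 bp. A single position made up 905 embryo-high clusters (9.86%), 2 embryo-low clusters (0.0984%) and 6.52% of all tested clusters. Widths are those of clusters merged over the 4 tissues. Width grows with tag number, so sharpness was compared at 100 tags drawn from each cluster, with all 11 libraries pooled. Only embryo met the cluster rule in 77.4% of embryo-high clusters, while all 3 other tissues met it in 1588 of the 2032 embryo-low clusters. How far the number of tissues pooled adds to the differences in width and sharpness was not tested. The dominant position, the base with the most tags, then held a median of 65% of the tags in the 7102 embryo-high clusters with enough tags, 42% in embryo-low clusters and 53% over all tested clusters. It held over 90% in 22.4%, 1.48% and 10.5% of these clusters.

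The difference in sharpness from all tested clusters was largest at low levels. Among clusters whose highest tissue held 1 to 10 RPM, the median dominant share was 74% in embryo-high clusters and 57% over all tested clusters. From 10 to 100 RPM it was 45% and 43%, and from 100 RPM up it was 50.5% and 44%. Embryo-low clusters had 42%, 41% and 45% at these 3 levels. Separated embryo-high clusters had a median of 53%, the value over all tested clusters, and separated embryo-low clusters 42%. Drawing 30 tags in place of 100 gave medians of 70% for embryo-high, 43.3% for embryo-low and 56.7% for all tested clusters.

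**Figure D3:**
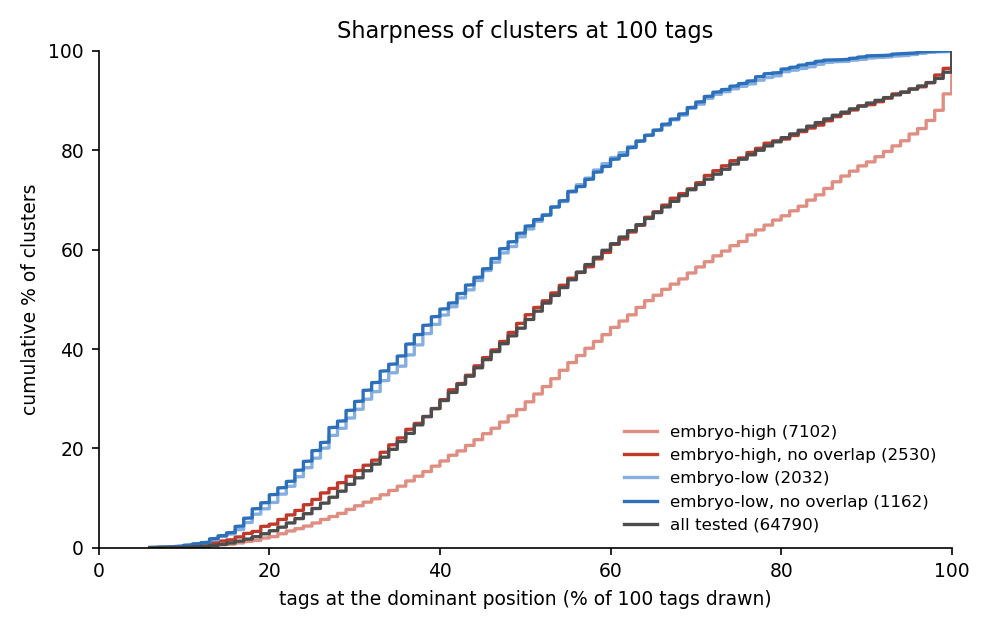
Cumulative share of clusters (vertical axis, %) by the share of 100 tags, drawn from all 11 libraries pooled, that fell on the dominant position (horizontal axis, %). The number of clusters of at least 100 tags is in brackets. Curves further right hold sharper clusters; embryo-high clusters (median 65%) lie to the right of all tested clusters (53%) and embryo-low clusters (42%) to the left, and the separated embryo-high clusters follow the curve of all tested clusters.

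Neighbours on the same strand were counted at the same distance for all sets. A tested cluster of any kind lay within 1000 bp for 47.2% of embryo-high clusters, 64.3% of separated embryo-high clusters, 70.6% of embryo-low clusters and 55.8% of all tested clusters. Another embryo-high cluster lay within 1000 bp on the same strand for 2803 embryo-high clusters (30.5%), and another embryo-low cluster for 290 embryo-low clusters (14.3%), a smaller set. A cluster of at least 100 RPM in embryo lay within that distance of 7.08% of embryo-high clusters, 14.2% of separated ones and 1.20% of all tested clusters. Most embryo-high clusters thus had no strong embryo start beside them. A cluster on the opposite strand within 500 bp upstream was found for 7.19% of embryo-high, 6.25% of embryo-low and 6.67% of all tested clusters, and for 9.91% of separated embryo-high clusters.

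Within clusters that all tissues used, embryo shared its dominant base with another tissue somewhat less often than the other tissues did with each other. In 7913 clusters with at least 50 tags in each tissue's pool, the dominant position was the same in embryo and seedling in 48.0%, in embryo and spike in 47.4% and in embryo and root in 50.7%, against 52.5% to 57.5% between the other tissues. Between the embryo libraries themselves it was the same in 43.0% to 51.6% of clusters with enough tags in both. That range comes from single libraries and from other sets of 2411 to 4500 clusters, so it is not like for like with the tissue pools. Embryo alone differed from a position that the other 3 shared in 797 clusters (10.1%), against 432 for seedling, 517 for spike and 302 for root. In 2417 clusters with at least 10 tags in every library, only 1 had its 3 embryo libraries on one position and the 8 others on another, at chr5A:414754103-414754162 (plus strand). Its embryo libraries had 45.4%, 51.4% and 76.5% of their tags at position 414754144 and the others had their largest share at position 414754147, 3 bp away.

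Few embryo-high clusters had an embryo-low cluster beside them. How many such pairs sets of these sizes would give by themselves was not tested. Only 23 pairs lay within 1000 bp on the same strand, with 21 embryo-high clusters (0.229%) and 20 embryo-low clusters (0.984%), a median gap of 204 bp, and the embryo-high cluster upstream in 12 pairs and downstream in 11. Both members were separated in 1 pair. In the pair with the largest changes, chr5B:214134700-214134719 (minus strand) held 13.0, 7.74 and 0 RPM in embryo and no tag elsewhere. Its partner 131 bp downstream, chr5B:214134529-214134569, had no embryo tag, 0, 31.8, 20.1 and 30.0 RPM in seedling, 8.71 and 0.0410 RPM in spike and 12.4 and 18.5 RPM in root. The partners did not overlap in tissue use but each was absent from some libraries of its own tissues, and neither was separated.

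The other 3 named pairs lay at a pair of loci. At chr3A, the embryo-high clusters chr3A:12815522-12815525 (0, 6.4 and 5.91 RPM in embryo) and chr3A:12815498-12815500 (8.00, 0 and 5.11 RPM, and 0.0410 RPM in spike replicate 2) lay 204 and 180 bp upstream of the embryo-low cluster chr3A:12815228-12815318 (minus strand). That embryo-low cluster had no embryo tag and 0.986 to 22.5 RPM in the 8 other libraries, so it was separated. At chr5A, the embryo-high cluster chr5A:601480954-601480963 (6.48, 5.05 and 0 RPM in embryo) lay 104 bp downstream of chr5A:601481067-601481085 (minus strand; no embryo tag and 0 to 14.1 RPM elsewhere). Each embryo-high member had tags in 2 of the 3 embryo libraries. All members lost their call in at least 2 of the alternatives run, among them leaving out spike replicate 2 (adjusted p from 0.0550 to 0.0917).

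The subgenomes shared the called clusters about as they shared all clusters. Embryo-high clusters lay in A, B and D at 31.4%, 33.6% and 33.7%, embryo-low clusters at 32.3%, 33.1% and 33.8%, and all tested clusters at 32.4%, 34.0% and 32.4%. Single chromosomes differed more. The share of tested clusters that were embryo-high was 12.2% on 4D, 11.9% on 1D and 11.3% on 1A, and 8.43% on 2B. Separated embryo-high clusters were 4.69% of the clusters on 4D and 4.47% on 4B, and 2.15% on 3A. Of the 173 on 4D, 29 lay in a stretch of 1 Mb described below, and of the 178 on 4B, 29 and 15 lay in such stretches. Neighbouring clusters were counted singly, so these shares do not count separate loci.

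Along the chromosomes, separated embryo-high clusters lay somewhat nearer to the ends. Their median distance to the nearer end was 15.5% of the chromosome, against 16.8% for embryo-high, 19.4% for embryo-low and 18.6% for all tested clusters. The outer 20% at each end held 60.8% of the separated embryo-high clusters, 57.7% of embryo-high, 50.8% of embryo-low and 53.1% of all tested clusters. In the outer 10% the shares were 33.3%, 32.5%, 30.7% and 30.8%. By distance, the share of clusters that were embryo-high was 9.93% in the outermost 5%, 11.8% from 10% to 15% and 7.49% next to the middle.

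**Figure D4:**
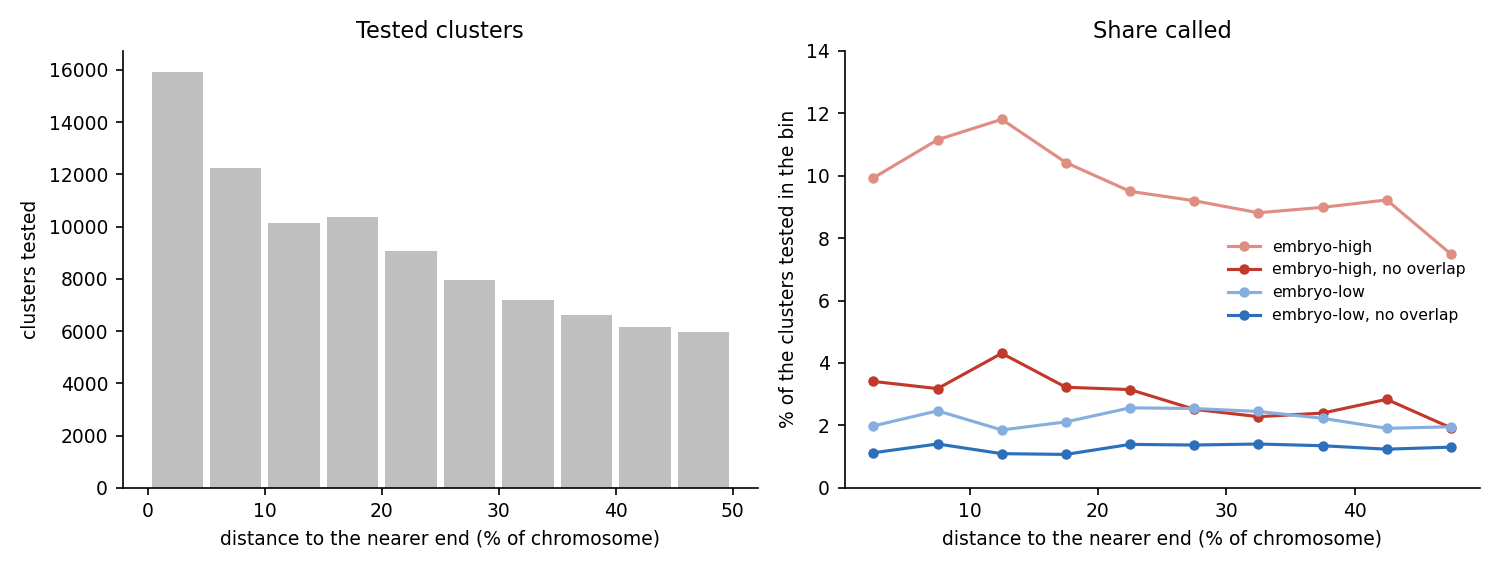
Number of tested clusters (left) and the share of them that was embryo-high or embryo-low (right, %) by distance to the nearer chromosome end (horizontal axis, % of the chromosome, bins of 5%). Embryo-high shares are highest from 10% to 15% (11.8%) and lowest next to the middle (7.49%), and embryo-low shares stay between 1.85% and 2.56%.

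Some stretches of 1 Mb, picked for their counts after the values were seen, held many separated embryo-high clusters. The sums given for them cover embryo-high clusters only, whose low level elsewhere the call itself favours. On 4B, from 13000001 to 14000000, 34 of 49 tested clusters were embryo-high and 29 of these separated. Together the 34 held 1284, 1174 and 1215 RPM in the embryo libraries and at most 2.70 RPM in any other. They fell into 5 groups that were over 5000 bp apart or on different strands. On 4D, from 7000001 to 8000000, 35 of 70 clusters were embryo-high (29 separated) in 6 groups, and this stretch holds the named cluster on 4D. These 35 held 5123, 5032 and 4814 RPM in embryo and at most 4.53 RPM elsewhere. Over all clusters of the stretch, called or not, the level was 5752 RPM in embryo and 1401 RPM in the other tissues, so the stretch was not silent outside embryo.

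On 5D, from 493000001 to 494000000, 18 of 22 clusters were embryo-high (15 separated) in 3 groups, with 3149, 3504 and 3622 RPM in embryo and at most 1.77 RPM elsewhere, and the named cluster with the smallest p lies there. On 4B, from 532000001 to 533000000, 17 of 20 were embryo-high (15 separated) in 2 groups. On 1D, from 448000001 to 449000000, 21 of 29 were embryo-high (14 separated) in 9 groups, and here spike held 16.6 and 25.2 RPM and root 4.18 and 12.2 RPM. The clusters of such a stretch thus lay in few places. The stretch with the most separated embryo-low clusters, on 6B from 493000001 to 494000000, had 6 embryo-low clusters among 21 (5 separated).

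Peaks of H3K4me3 and H3K9ac from JW1 spikes overlapped fewer embryo-high than embryo-low clusters. H3K4me3 peaks covered at least 1 bp of 43.1% of embryo-high, 62.6% of embryo-low and 56.7% of all tested clusters, and H3K9ac peaks 29.7%, 49.0% and 44.6%. Separated embryo-high clusters had 52.1% for H3K4me3 and 31.6% for H3K9ac, and separated embryo-low clusters 64.9% and 50.9%. Neither mark was found at 55.6% of embryo-high, 36.0% of embryo-low and 42.2% of all tested clusters. The lists come from 1 library per mark, from another cultivar and from spike, and the embryo ChIP-seq libraries of the series were not analysed here.

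The gap for H3K9ac held at every level of the tissue where a cluster was highest. That tissue was embryo for 97.3% of embryo-high clusters, while the peaks came from spike. These classes therefore do not match clusters for their spike level. Whether the gap goes with a lower spike level, which the embryo-high call favours, was not tested. Among clusters whose highest tissue reached 100 RPM, H3K4me3 overlapped 55.9% of embryo-high, 65.6% of embryo-low and 65.9% of all tested clusters, and H3K9ac 29.0%, 49.9% and 50.2%. From 10 to 100 RPM the H3K4me3 shares were 59.1%, 61.6% and 62.6% and the H3K9ac shares 37.2%, 49.1% and 48.3%. From 1 to 10 RPM they were 38.5%, 57.8% and 54.9%, and 28.0%, 43.5% and 43.5%. Counting peaks within 500 bp raised the H3K4me3 shares to 57.3%, 79.2% and 69.9% and the H3K9ac shares to 47.9%, 72.5% and 63.7%, in the same order. Of the 12 named embryo-high clusters, 7 overlapped an H3K4me3 peak and 1, on 4D, an H3K9ac peak, and of the 12 named embryo-low clusters 7 and 6 did.

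**Figure D5:**
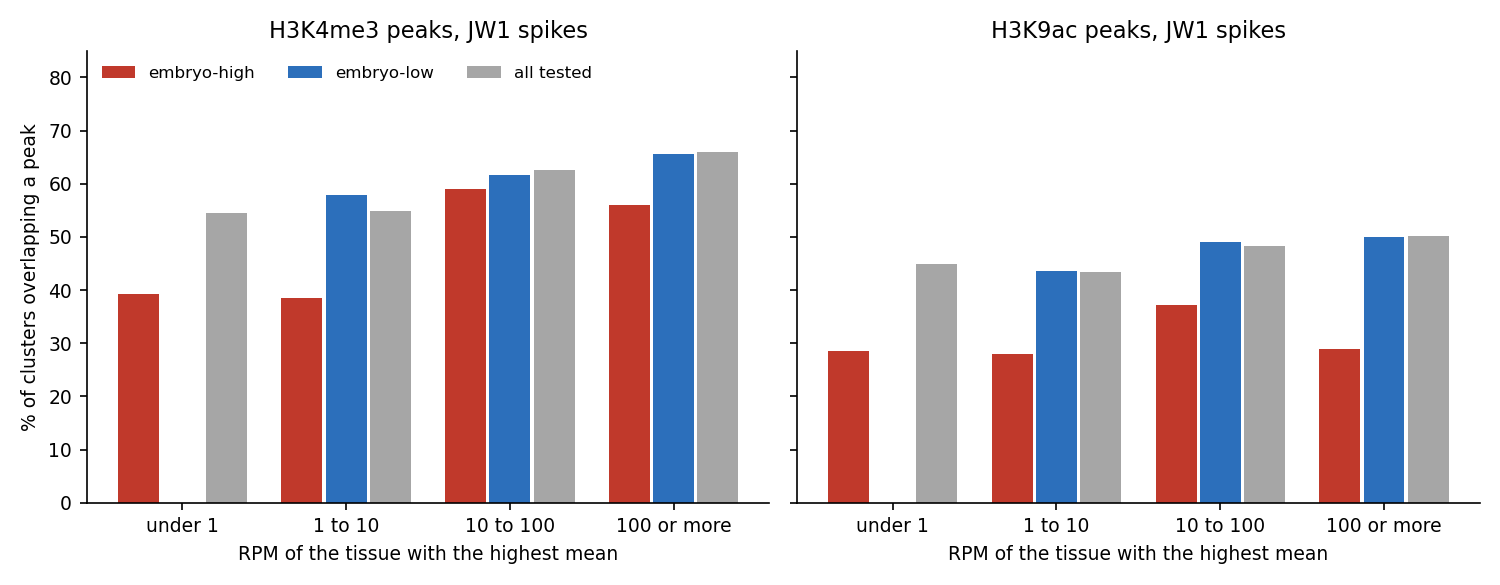
Share of clusters (vertical axis, %) that overlap a JW1 spike peak of H3K4me3 (left) or H3K9ac (right) by at least 1 bp, by the mean level in the tissue where the cluster is highest (horizontal axis, RPM). Bars show embryo-high, embryo-low and all tested clusters, with no embryo-low cluster under 1 RPM; embryo-high bars are the lowest in each H3K9ac group, at 28.0% to 37.2%.

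RNA-seq of embryo and root, which the calls did not use, could be set beside CAGE for clusters on chromosome 1A that a shortened copy of the study's annotation, which covers only part of that chromosome, ties to genes. With 1 library each, no test was made. Among 69 pairs of an embryo-high cluster and a gene (60 genes), RNA-seq was higher in embryo in 55 and lower in 14, with a median log2 ratio of embryo over root of 1.36, beside 3.00 in CAGE. Among 44 pairs with an embryo-low cluster (42 genes), it was higher in 4 and lower in 40, with a median of -1.43, beside -4.30 in CAGE. Over all 1058 pairs (726 genes) it was higher in 427 and lower in 631, with medians of -0.25 and -1.18, on the scale of log2(RPM + 0.5) for genes with at least 10 reads.

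The gene TraesCS1A02G202900, at the cluster chr1A:364046763-364046947 (minus strand), had 102393 RNA-seq reads in embryo and 0 in root. Its CAGE cluster held 6651, 5969 and 3410 RPM in embryo and 0 to 5.19 RPM in the other libraries. TraesCS1A02G008000, at chr1A:4203616-4203639 (minus strand), had 718 and 7 reads, and 409, 469 and 301 RPM of CAGE in embryo against 0 to 3.66 RPM. Both readouts were higher in embryo for these genes.

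In the other direction, TraesCS1A02G115900, at chr1A:121129885-121129905 (minus strand), had 113 reads in embryo and 6771 in root, and its CAGE level was 0, 0.337 and 0.450 RPM in embryo, 338 and 315 RPM in root and 347 to 857 RPM in seedling. TraesCS1A02G234600, at chr1A:410152944-410153002 (plus strand), had 17 and 7635 reads, and 0.0661, 0 and 0.10 RPM of CAGE in embryo against 259 and 227 RPM in root. Both readouts were lower in embryo. These 4 genes were chosen by the smallest CAGE p on this chromosome, after the values were seen, and the sources used here give no product names for them.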

How the data were processed

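Per the study's methods, the authors trimmed CAGE reads with cutadapt, removed rRNA and organelle reads with SortMeRNA, mapped the rest with Bowtie2 to IWGSC reference sequence version 1.0 and kept uniquely mapped reads. The deposited values are counts of 5′ ends per position and strand, per library, without normalization. Chromosomes were deposited in parts, which were joined with offsets found from coordinates the study lists, and 61 repeated position lines were added together. For RNA-seq, the authors deposited counts of reads per gene (HISAT2, featureCounts). The deposited peak lists hold positions and no score.

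Tag counts per merged cluster were filtered with filterByExpr and fitted with edgeR 4.0.16 in R 4.3.3 (robust quasi-likelihood, TMM, 1 coefficient per tissue), with Benjamini-Hochberg adjustment over 92706 clusters. The fit was tested on counts simulated for the 92706 clusters, with the embryo level of some raised. It recovered 11.5% of 4-fold, 49% of 8-fold, 86% of 16-fold and 100% of 64-fold increases. Most 4-fold increases were thus missed in the simulation, and 21 unchanged clusters were called. Before the raise, each simulated cluster had the same mean in all tissues. In the data, 8001 embryo-high clusters had no tag in at least 1 other tissue, so these rates need not hold for them. Alternatives were no filter or a mean of 1 RPM, no TMM, DESeq2 size factors, DESeq2 1.42.0, no robust dispersions, a replicate block, joining at 10 or 50 bp, 5 tags, each library left out and, chosen after seeing the data, the 8 other libraries as 1 group.

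Named clusters are the 12 separated embryo-high and 12 separated embryo-low clusters with the smallest p, the 6 with the highest mean in embryo, and the 4 embryo-high and embryo-low pairs within 1000 bp whose smaller change is largest. Others named were chosen after their values were seen. The clusters, lists and rules were chosen with earlier results of these data known. *Triticum urartu* libraries and the RNAi experiment were not used here.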

Additional observations from a re-analysis of the deposited data

Results flagged for a closer look

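In 4 of the 37 named clusters, seedling replicate 1 stood outside the other 3 seedling libraries by Dixon's criterion, in which the gap to the nearest library is divided by the range of the group. Chance gives such a gap in about 1 in 20 groups. Seedling replicate 1 was high at chr3A:744266462-744266515 (1472 RPM, gap 0.889 of the range), chr7B:689184759-689184828 (20309 RPM, 0.945) and chr4D:472346400-472346669 (8364 RPM, 0.830), and low at chr7B:106339617-106339626 (411 RPM, 0.896). At the first 3 clusters its level was near that of the spike libraries, and at the last, where spike held 11.3 and 11.7 RPM, it was the lowest seedling library. All 4 clusters kept their embryo-high or embryo-low call without that library.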

How the results depend on the processing

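The count of embryo-high clusters was 9179. It was 4500 with no filter on low counts, 5092 with DESeq2, 2200 with a replicate block and between 1627 and 9733 when each library was left out in turn. The count of embryo-low clusters was 2032. It was 1295 with no filter, 5521 with DESeq2, 944 with the replicate block and between 793 and 2232 with a library left out. With DESeq2, 48.0% of the called clusters were higher in embryo, against 81.9%, and with the 8 other libraries as 1 group there were 6576 embryo-high clusters (6538 of them among the 9179) and 2859 embryo-low clusters (1523 of them among the 2032). Calls of embryo against spike were 1765, 4742 with a mean of at least 1 RPM as the filter, 5447 with DESeq2 and 622 to 3068 with a library left out. For embryo against root they were 2178, 5282, 6393 and 737 to 3579. For embryo against seedling they were 8090, 17818, 19304 and 3910 to 8468, and 4262 with the replicate block. Embryo clusters numbered 34573, and 19463 to 34573 with a library left out. The cause of these shifts was not tested. Filters change which clusters are tested, and leaving out a library lowers the number of libraries. Leaving out a spike or root library also raised the number of clusters tested, from 92706 to between 111850 and 115670. Deviations from the tissue mean did not go together in libraries of equal replicate number (median r 0.0038, 13 pairs), so the replicate block does not stand for a known pairing. Without TMM the median log2 fold change of all tested clusters moved from -0.07 to -0.49 against root, and with DESeq2 size factors from -0.36 to -0.53 against seedling. Of 805 values of the 37 named clusters under alternatives, 731 kept their call, 74 lost it and 0 changed direction. The replicate block was among the alternatives that lost the calls of chr5B:505768454-505768630 and chr7A:694552565-694552838 (adjusted p = 0.116 and 0.0512). The 12 named embryo-high clusters kept their call in all alternatives run, as did 11 of the 12 embryo-low ones. Embryo replicate 2, with 2970800 tags, limits what could be seen in all 3 embryo libraries, and 253083 of 287867 joined groups of embryo positions, with 25.7% of embryo tags, were left out because fewer than 2 libraries held 2 tags.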
